A study of Mus musculus with 6 samples.

Results

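The genes described here are 9 genes of blastocoel formation in the mouse embryo: the sodium pump subunit gene Atp1b1, the aquaporin genes Aqp3, Aqp8 and Aqp9, the tight-junction scaffold gene Tjp1, the claudin genes Cldn4, Cldn6 and Cldn7, and Ocln, which encodes occludin. They were chosen by name, out of 22180 genes with a probeset annotated to 1 symbol on these expression arrays, and each of the 9 had exactly 1 such probeset, so no choice between probesets was needed. All embryos were blastocysts of let7g-transgenic mice, and each of the 6 arrays was made from the RNA of 10 blastocysts. D4-act-7g blastocysts were activated and belong to day 4, Dor-7g blastocysts were dormant in vivo on day 7, and DOX-7g blastocysts were made dormant in vitro with DOX, which induces let-7, also on day 7; each group had 2 arrays. The controls carry the transgene too, no source used here names the promoter that drives it, and day, culture, DOX and let-7 all separate DOX-7g from D4-act-7g and cannot be told apart. For Dor-7g, day and dormancy cannot be told apart either. The labels do not state whether both arrays of a group stem from different animals or pools; p-values here thus cover only array-to-array spread, which may be technical.

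The blastocoel is the fluid-filled cavity of the blastocyst. The outer epithelium, the trophectoderm, pumps sodium inward with a basolateral Na,K-ATPase made of an alpha and a beta subunit, water follows through aquaporins, and tight junctions between the cells keep the fluid in. In diapause the blastocyst stops growing before it implants but stays alive and expanded, and the study asked about that state and let-7, a family of microRNAs that lower the output of their target transcripts. The question asked of the 9 genes was whether their transcripts differ between activated, in vivo dormant and let-7-induced dormant blastocysts.

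The microRNA that the transgene is named for is shown first because DOX was given to induce let-7 in DOX-7g, with the seed, bases 2 to 8, in capitals; the promoter windows of Cldn6 and Aqp8 follow because Cldn6 gave the lowest unadjusted p of the 9 genes and Aqp8 the widest spread. The sequences are RefSeq's for GRCm38.p6, on the plus strand, at chr9:106178846-106178867, chr17:23679115-23679414 and chr7:123462044-123462343. Each window runs from 250 bases before the gene's start to 50 after it, and capitals mark the letters GGAATG or, on the other strand, CATTCC, the core of the motif of TEAD factors. Tead4, a TEAD factor, is required for trophectoderm formation.
mmu-let-7g-5p: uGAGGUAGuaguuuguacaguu
Cldn6: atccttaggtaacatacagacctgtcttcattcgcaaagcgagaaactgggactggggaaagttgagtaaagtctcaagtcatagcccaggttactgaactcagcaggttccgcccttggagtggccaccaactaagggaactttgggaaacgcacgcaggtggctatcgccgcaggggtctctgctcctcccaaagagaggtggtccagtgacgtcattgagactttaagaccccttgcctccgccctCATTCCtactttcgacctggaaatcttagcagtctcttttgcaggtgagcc
Aqp8: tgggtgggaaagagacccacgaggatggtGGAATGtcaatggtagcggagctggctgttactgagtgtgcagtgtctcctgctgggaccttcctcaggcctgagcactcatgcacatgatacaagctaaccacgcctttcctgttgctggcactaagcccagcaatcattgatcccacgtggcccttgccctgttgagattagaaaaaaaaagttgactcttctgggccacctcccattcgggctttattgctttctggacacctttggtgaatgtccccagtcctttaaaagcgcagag

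Those letters stood in 3 of the 12 windows of the 9 genes (25%), those of Cldn6, Aqp8 and Cldn7, against 14.7% of all 32851 windows. The letters GCCNNNGGC, bound by TFAP2 factors and identical on both strands, stood in 2 of the 12 windows (16.7%), those of Tjp1 and Ocln, against 16.6% of all windows; the trophectoderm factor Tfap2c belongs to that family. These matches describe the letters only.

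The deposited values are RMA-normalized log2 intensities, and the median over all probesets was 4.62 to 4.67 on 5 arrays and 4.87 on Dor-7g replicate 1. The 2 arrays of a group correlated across probesets at r = 0.978 in D4-act-7g, 0.969 in DOX-7g and 0.919 in Dor-7g. A gene was tested if 2 or more arrays reached their own median, which left 14020 genes, 8 of the 9 genes described here among them. Tjp1 lay below the median on all 6 arrays and is treated as dim. The trophectoderm keratin gene Krt8 stood at 9.80 to 11.30 and the trophectoderm factor gene Cdx2 at 6.43 to 7.48, and 11 or 12 of 12 trophectoderm markers were at or above the median on every array. The inner-cell-mass gene Pou5f1 stood at 5.83 to 6.13, and 6 or 7 of 9 inner-cell-mass and epiblast markers were at or above the median on each array. In whole blastocysts, fewer trophectoderm cells and less RNA per cell cannot be told apart. Levels are compared below within a gene only, since probesets differ in brightness.

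No member passed the test in any comparison (limma, adjusted p between 0.234 and 0.999, threshold 0.05): 0 of 8 tested members between Dor-7g and D4-act-7g, where 0.984% of all genes passed, 0 of 8 when DOX-7g was set against D4-act-7g, where 0.956% passed, and 0 of 8 between DOX-7g and Dor-7g, where 1.16% passed. At an unadjusted p below 0.05 the counts were 1 of 8, 0 of 8 and 0 of 8, against 14.3%, 11% and 11.6% of all genes. With 8 members and a share near 1%, a count of 0 is near the background. The 3 comparisons share groups, so their values are not independent of each other.

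**Figure D1:**
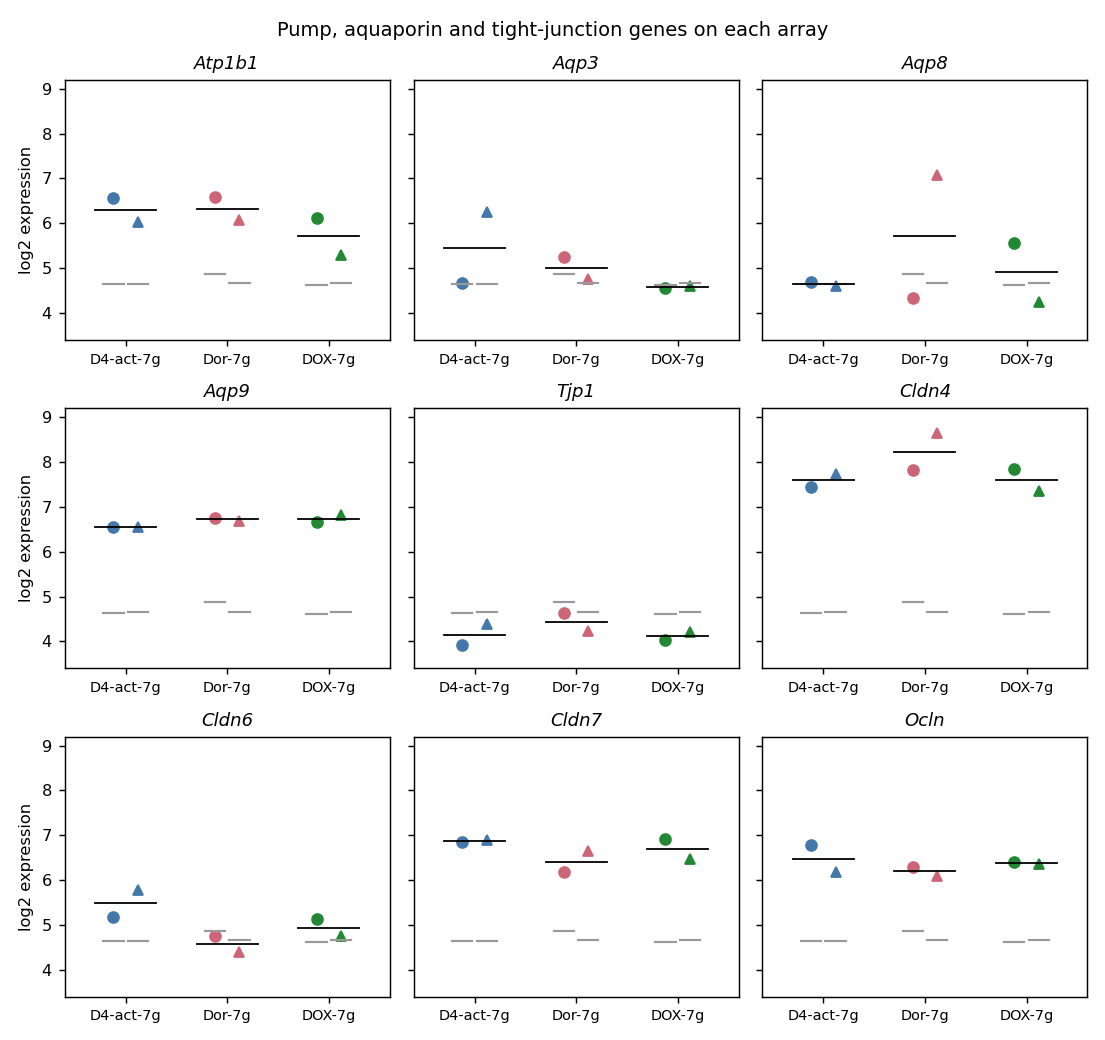
Log2 expression (vertical axis) of the 9 genes on each array by group, with replicate 1 as circles, replicate 2 as triangles, group means as black lines and each array's median over all probesets as grey lines. Aqp8 stands at 7.07 on Dor-7g replicate 2 and at 4.34 on replicate 1, Aqp3 at 6.24 on D4-act-7g replicate 2 and at 4.66 on replicate 1, and Tjp1 lies below the grey lines throughout.

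Atp1b1 (probeset 17229178) encodes the beta-1 subunit, which carries the pump's alpha subunit to the cell surface. It stood at 6.55 and 6.04 on the D4-act-7g arrays, 6.58 and 6.07 on the Dor-7g arrays, and 6.13 and 5.30 on the DOX-7g arrays (replicates 1 and 2 throughout). D4-act-7g and Dor-7g nearly coincided, DOX-7g replicate 2 was the lowest array, and every pair of groups overlapped. The difference between Dor-7g and D4-act-7g was 0.03 ± 0.36 log2 units (SE, n = 2 arrays each), with a 95% interval from -0.86 to 0.92 (limma, adjusted p = 0.976). DOX-7g lay below D4-act-7g by 0.58, with an interval of the difference from -1.47 to 0.31 (limma, adjusted p = 0.69), and its difference from Dor-7g was -0.61, from -1.50 to 0.28 (limma, adjusted p = 0.546). These 2 values were -0.17 and -0.20 without DOX-7g replicate 2, and -0.998 and -1.03 without DOX-7g replicate 1.

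Aqp3 (probeset 17424119) encodes an aquaglyceroporin, a channel that passes water and glycerol. Its values were 4.66 and 6.24 in activated D4-act-7g, 5.26 and 4.75 in dormant Dor-7g, and 4.56 and 4.61 in dormant DOX-7g. D4-act-7g replicate 2 alone was far above its array median, both DOX-7g arrays were just below theirs and below every other array, and D4-act-7g overlapped Dor-7g. The change was -0.45 ± 0.51 for Dor-7g against D4-act-7g and -0.87 ± 0.51 for DOX-7g against D4-act-7g (SE, n = 2 each; limma, adjusted p = 0.714 and 0.666). Both DOX-7g arrays being below their median, no fold is given; the latter change had an interval from -2.14 to 0.40, and without D4-act-7g replicate 2 the values were 0.34 and -0.08. The difference between DOX-7g and Dor-7g was -0.42, with an interval from -1.68 to 0.85 (limma, adjusted p = 0.745).

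Aqp8 (probeset 17482897) encodes a water channel that also passes ammonia and hydrogen peroxide. Its arrays read 4.70 and 4.61 in activated D4-act-7g, 4.34 and 7.07 in dormant Dor-7g, and 5.56 and 4.25 in dormant DOX-7g. Both day-7 groups held 1 array below and 1 array above the D4-act-7g arrays, so all groups overlapped. The differences were 1.05 ± 0.90, 0.25 ± 0.90 and -0.80 ± 0.90 for Dor-7g and DOX-7g against D4-act-7g and for DOX-7g against Dor-7g (SE, n = 2 each; limma, adjusted p = 0.626, 0.981 and 0.724). Without Dor-7g replicate 2 the first became -0.31 and the last 0.57, and without DOX-7g replicate 1 the second became -0.40. Dor-7g replicate 2 was also the array with the uterine stroma marker Dcn at 9.29, against 3.67 to 4.22 on the other 5, and Lum at 5.01, against 3.44 to 4.13. The other 6 measured stroma markers lay within the range of the other arrays there, Col1a1 for one at 6.45 against 6.08 to 6.56; the mean of all 8 was 5.69, against 4.74 to 5.06. The part of these transcripts in the Aqp8 value was not tested.

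Aqp9 (probeset 17528644), the gene of an aquaglyceroporin, was the steadiest of the 8 tested members. It read 6.55 and 6.55 in activated D4-act-7g, 6.75 and 6.69 in dormant Dor-7g, and 6.66 and 6.81 in dormant DOX-7g. In the deposited values both dormant groups lay above D4-act-7g without overlap, and they overlapped each other. Relative to array medians, Dor-7g replicate 1 lay below both D4-act-7g arrays, so Dor-7g and D4-act-7g overlapped. The changes were small, 0.17 ± 0.17 in Dor-7g and 0.18 ± 0.17 in DOX-7g against D4-act-7g (SE, n = 2 each; limma, adjusted p = 0.672 and 0.832), with intervals from -0.24 to 0.58 and from -0.23 to 0.60. The upper bound of the second corresponds to 1.51-fold. The difference between the dormant groups was 0.01, with an interval from -0.40 to 0.43 (limma, adjusted p = 0.979).

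Tjp1 (probeset 17491853) encodes ZO-1, the scaffold that ties the claudins and occludin to actin. Its levels were 3.91 and 4.39 in activated D4-act-7g, 4.63 and 4.22 in dormant Dor-7g, and 4.03 and 4.21 in dormant DOX-7g. D4-act-7g overlapped both dormant groups, and the DOX-7g arrays lay just below the Dor-7g arrays. Tested among all 22180 genes with no filter on dim genes, the changes were 0.28 ± 0.24, -0.03 ± 0.24 and -0.30 ± 0.24 in the same order of comparisons (SE, n = 2 each; limma, adjusted p = 0.673, 1.00 and 0.66).

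Ocln (probeset 17295670) encodes occludin, a membrane protein of the tight-junction strand. Values were 6.78 and 6.18 in activated D4-act-7g, 6.30 and 6.10 in dormant Dor-7g, and 6.40 and 6.35 in dormant DOX-7g. D4-act-7g spanned most of the range and overlapped both dormant groups, while the DOX-7g arrays lay just above the Dor-7g arrays. The changes were -0.28 ± 0.25, -0.11 ± 0.25 and 0.18 ± 0.25 (SE, n = 2 each; limma, adjusted p = 0.63, 0.962 and 0.773). The interval between Dor-7g and D4-act-7g ran from -0.89 to 0.32.

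Claudins are the proteins that form the tight-junction strand itself and set which ions pass. Cldn4 (probeset 17453496) was at 7.45 and 7.73 in activated D4-act-7g, 7.82 and 8.65 in dormant Dor-7g, and 7.84 and 7.35 in dormant DOX-7g. Both Dor-7g arrays were above both D4-act-7g arrays, replicate 1 only slightly, and DOX-7g overlapped both groups. Relative to array medians, Dor-7g replicate 1 lay between the D4-act-7g arrays, so Dor-7g and D4-act-7g overlapped. Dor-7g differed from D4-act-7g by 0.64 ± 0.33, a mean 1.56-fold higher with an interval from -0.18 to 1.46, and DOX-7g from D4-act-7g by -0.0016 ± 0.33 (SE, n = 2 each; limma, adjusted p = 0.446 and 0.999). DOX-7g differed from Dor-7g by -0.64, with an interval from -1.47 to 0.18 (limma, adjusted p = 0.514). Without Dor-7g replicate 2 the difference between Dor-7g and D4-act-7g was 0.23, and with each array centred on its median it was 0.51.

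Cldn6 (probeset 17334097), a claudin gene of embryonic epithelia, stood at 5.19 and 5.79 in activated D4-act-7g, 4.76 and 4.40 in dormant Dor-7g, and 5.13 and 4.76 in dormant DOX-7g. The order was D4-act-7g, DOX-7g, Dor-7g with no overlap between any groups, but the DOX-7g and Dor-7g arrays nearly touched at 4.762 and 4.761. Both Dor-7g arrays were below the array median, so that level is dim. Dor-7g lay below D4-act-7g by 0.91 ± 0.28 log2 units, with no fold given against that dim level and an interval of the difference from -1.60 to -0.21 (SE over 2 arrays each; limma, adjusted p = 0.234). Its unadjusted limma p of 0.0187 was the only one below 0.05 among the member differences. DOX-7g against D4-act-7g gave -0.54 ± 0.28 and DOX-7g against Dor-7g 0.36 ± 0.28 (limma, adjusted p = 0.588 and 0.619).

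Cldn7 (probeset 17251829), another epithelial claudin gene, stood at 6.84 and 6.90 in activated D4-act-7g, 6.19 and 6.64 in dormant Dor-7g, and 6.91 and 6.46 in dormant DOX-7g. Dor-7g lay below D4-act-7g without overlap, and DOX-7g overlapped both. The changes were -0.46 ± 0.25, -0.18 ± 0.25 and 0.27 ± 0.25 (SE, n = 2 each; limma, adjusted p = 0.46, 0.914 and 0.664). Without Dor-7g replicate 1 the first became -0.23 and the last 0.05, without Dor-7g replicate 2 they became -0.68 and 0.50, and without DOX-7g replicate 1 the second became -0.41 and the last 0.05.

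**Figure D2:**
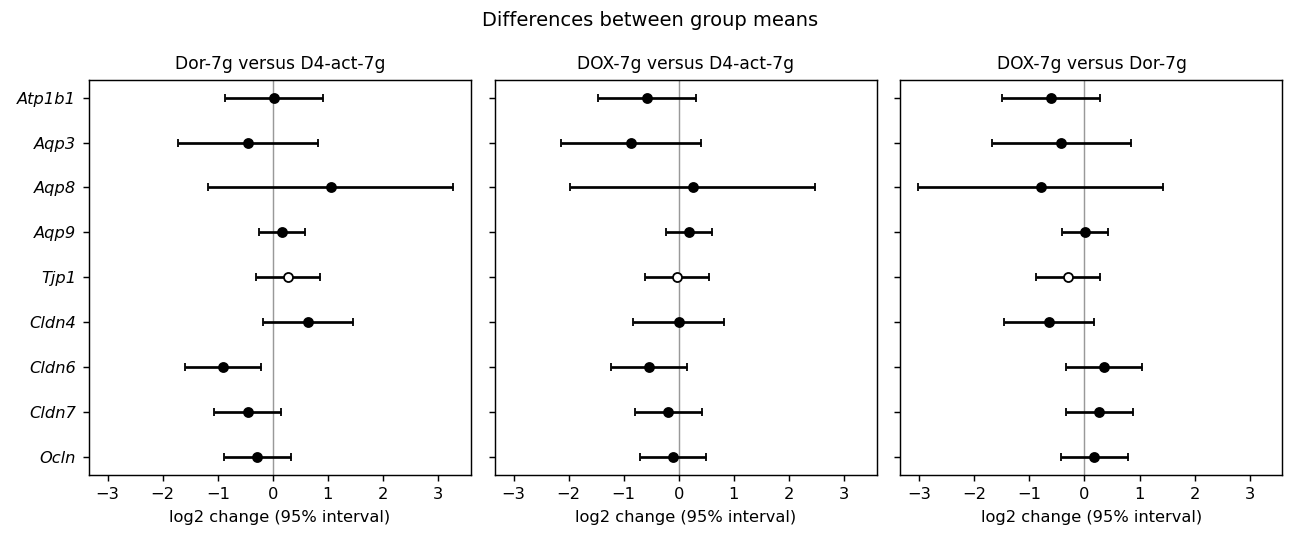
Log2 changes between group means (horizontal axis, points) with limma's 95% intervals (bars, n = 2 arrays per group) for the 9 genes in the 3 comparisons; the open points of Tjp1 come from the test with no filter on dim genes. The interval of Cldn6 between Dor-7g and D4-act-7g, from -1.60 to -0.21, is the only one that leaves out 0 before adjustment, and Aqp8 has the widest intervals.

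Across the 8 tested members the median change was -0.13 between Dor-7g and D4-act-7g, -0.15 between DOX-7g and D4-act-7g and -0.20 between DOX-7g and Dor-7g, beside medians of 0.06, -0.05 and -0.11 over all 14020 genes. Members lay 4 above and 4 below 0, 2 above and 6 below, and 4 above and 4 below. In the deposited values the arrays of both groups did not overlap for 4, 3 and 3 of the 8 members, near the 45.8%, 49.7% and 41.7% of all genes. By direction, 2 were higher and 2 lower in Dor-7g than in D4-act-7g (24.3% and 21.5% of all genes), 1 higher and 2 lower in DOX-7g than in D4-act-7g (19.2% and 30.5%), and 2 higher and 1 lower in DOX-7g than in Dor-7g (15% and 26.7%). Relative to array medians, the 2 higher in Dor-7g than in D4-act-7g, Aqp9 and Cldn4, overlapped. The shares of all genes were not recounted that way. The calls over all genes also split by direction: 0.243% higher and 0.742% lower, 0.706% and 0.25%, and 1.04% and 0.121%, against 0 members either way.

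The spread between the 2 arrays of a group varied widely among these genes. Replicates lay 1.58 apart for Aqp3 in D4-act-7g, more than for 99.5% of the 14020 genes, and by 2.73 for Aqp8 in Dor-7g and 1.31 in DOX-7g, more than for 98.4% and 97.9%. For Atp1b1 the DOX-7g arrays differed by 0.83, more than for 94.1% of genes. Small gaps occurred as well, below those of most genes: that of Ocln in DOX-7g was larger than for 11.5% of genes, that of Aqp3 in DOX-7g than for 15%, that of Cldn7 in D4-act-7g than for 19.8%, and those of Aqp9 in D4-act-7g and Dor-7g than for 0.942% and 8.49%. In each group 5 of 8 members had a wider gap than the median gene, near the even split that a median gives; that gene's gap was 0.17 in activated D4-act-7g, 0.36 in dormant Dor-7g and 0.20 in dormant DOX-7g. The range over all 6 arrays ran from 0.26 for Aqp9, wider than for 3.78% of genes, to 2.82 for Aqp8, wider than for 95.3%. Its median was 1.29 over the 8 members and 0.74 over all 14020 genes. Aqp9, Ocln (0.68) and Cldn7 (0.72) ranged less than the median gene and the other members more, so members lay on both sides, as for the gaps.

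**Figure D3:**
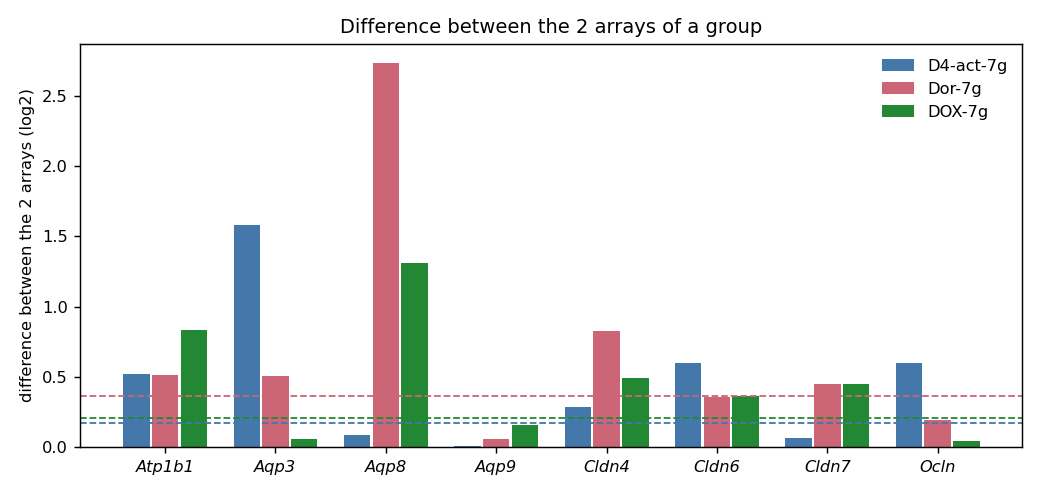
Gap between replicates 1 and 2, without sign, in log2 units (vertical axis) for the 8 tested members, with 1 bar per group and dashed lines at the group's median over all 14020 genes. Aqp8 in Dor-7g (2.73) and in DOX-7g (1.31) and Aqp3 in D4-act-7g (1.58) stand far above those lines, and Aqp9 stays below them.

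The wider pump family was described from the listed Na,K-ATPase subunits and FXYD regulators, small proteins that tune the pump. Of 10 with a probeset 9 were tested, and none passed in any comparison. At an unadjusted limma p below 0.05 there were 4, 0 and 3, beside 14.3%, 11% and 11.6% of all genes. Their median change was 0.58 between Dor-7g and D4-act-7g, 0.14 between DOX-7g and D4-act-7g and -0.51 between DOX-7g and Dor-7g. The medians over all genes were 0.06, -0.05 and -0.11. Between Dor-7g and D4-act-7g 8 of the 9 lay above 0 and 1 below it, where 43.3% of all genes lay below it. The 4 with an unadjusted p below 0.05, named after their values were seen, were the regulator genes Fxyd1 (1.11 ± 0.36), Fxyd2 (0.89 ± 0.28) and Fxyd4 (0.53 ± 0.20) and the alpha subunit gene Atp1a4 (0.64 ± 0.20), all above 0 (limma, adjusted p = 0.248, 0.233, 0.317 and 0.24). The largest difference was that of Atp1b3, another beta subunit gene, at -2.41 ± 1.10 (limma, adjusted p = 0.399). It was the 1 gene below 0, with Dor-7g replicate 1 at 3.51 and replicate 2 at 7.19, the D4-act-7g arrays at 8.004 and 7.52 and the DOX-7g arrays at 7.27 and 7.41. Between DOX-7g and D4-act-7g the largest was Fxyd5, at 1.23 ± 0.50 (limma, adjusted p = 0.456), with values of 6.71 and 8.04 against 6.24 and 6.05.

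Of 12 listed aquaporins, all with a probeset, 10 were tested and none passed in any comparison. At an unadjusted limma p below 0.05 there were 0, 1 and 0, beside 14.3%, 11% and 11.6% of all genes. The list's medians were 0.03, -0.13 and -0.21. Aqp11, an intracellular aquaporin, had the largest difference in each comparison, -2.93 ± 1.51, -1.44 ± 1.51 and 1.49 ± 1.51 (SE, n = 2 each; limma, adjusted p = 0.443, 0.872 and 0.696). It stood at 9.34 and 9.30 in activated D4-act-7g, 3.93 and 8.84 in dormant Dor-7g and 8.60 and 7.15 in dormant DOX-7g. Aqp11 and Atp1b3 were both below the array median on Dor-7g replicate 1 alone.

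Of 26 claudins with a probeset 17 were tested. Cldn13 rose from 6.12 and 6.67 in activated D4-act-7g to 8.22 and 7.98 in dormant Dor-7g, by 1.70 ± 0.24 log2 units (SE, n = 2 each; limma, adjusted p = 0.0487), and it was the only claudin called there. In DOX-7g it stood at 7.79 and 7.67, a difference from D4-act-7g of 1.33 ± 0.24 (limma, adjusted p = 0.0961). All 4 dormant arrays were above both day-4 arrays. Of 15 alternatives 4 kept the call. It was lost without Dor-7g replicate 1, either D4-act-7g array or either DOX-7g array, with adjusted p from 0.077 to 0.28, although the change stayed between 1.43 and 1.98.

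Cldn9, which lies next to Cldn6 on chromosome 17, was higher in DOX-7g than in Dor-7g by 1.60 ± 0.19 (SE, n = 2 each; limma, adjusted p = 0.021), the only claudin called in that comparison. It stood at 7.61 and 7.57 in activated D4-act-7g, 6.66 and 6.53 in dormant Dor-7g and 8.05 and 8.34 in dormant DOX-7g, so Dor-7g was lowest and DOX-7g highest with no overlap. Its neighbour Cldn6 also had its lowest arrays in Dor-7g, but its highest in D4-act-7g. Of 15 alternatives 8 kept the call for Cldn9, which leaving out any D4-act-7g or DOX-7g array ended, with adjusted p from 0.0868 to 0.146. Cldn3, the neighbour of Cldn4 on chromosome 5, was picked after its values were seen; it stood at 7.89 and 8.16 in activated D4-act-7g, 8.43 and 8.98 in dormant Dor-7g and 9.03 and 8.37 in dormant DOX-7g. Its differences from D4-act-7g were 0.69 ± 0.31 and 0.68 ± 0.31 (limma, adjusted p = 0.39 and 0.523). No claudin passed between DOX-7g and D4-act-7g, and the medians of the list were 0.18, -0.0016 and -0.10. Of the 17 tested, 4, 2 and 1 had an unadjusted limma p below 0.05, beside 14.3%, 11% and 11.6% of all genes. The 1 call in each of the other comparisons stands beside 0.984% and 1.16% of all genes that passed.

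Among 12 tested genes of other tight-junction proteins, out of 16 with a probeset, Ybx3 fell from 10.00 and 9.84 in activated D4-act-7g to 8.27 and 7.84 in dormant Dor-7g, a change of -1.86 ± 0.24 (SE, n = 2 each; limma, adjusted p = 0.0359). Ybx3 encodes a Y-box protein, also known as ZONAB, that binds nucleic acids and ZO-1. DOX-7g lay between, at 9.39 and 8.97. Of 15 alternatives 8 kept the call, and leaving out any D4-act-7g or DOX-7g array ended it, with adjusted p from 0.0807 to 0.285. None of the list passed in the other comparisons, and the list's medians were 0.12, 0.07 and -0.07. Of the 12 tested, 2, 1 and 1 had an unadjusted limma p below 0.05, beside 14.3%, 11% and 11.6% of all genes. The 1 call stands beside 0.984% of all genes that passed between Dor-7g and D4-act-7g. Jam2, a junctional adhesion molecule gene, had the largest difference between DOX-7g and D4-act-7g, -1.17 ± 0.92 (limma, adjusted p = 0.786), and was at 6.04 and 8.94 on the Dor-7g arrays.

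**Figure D4:**
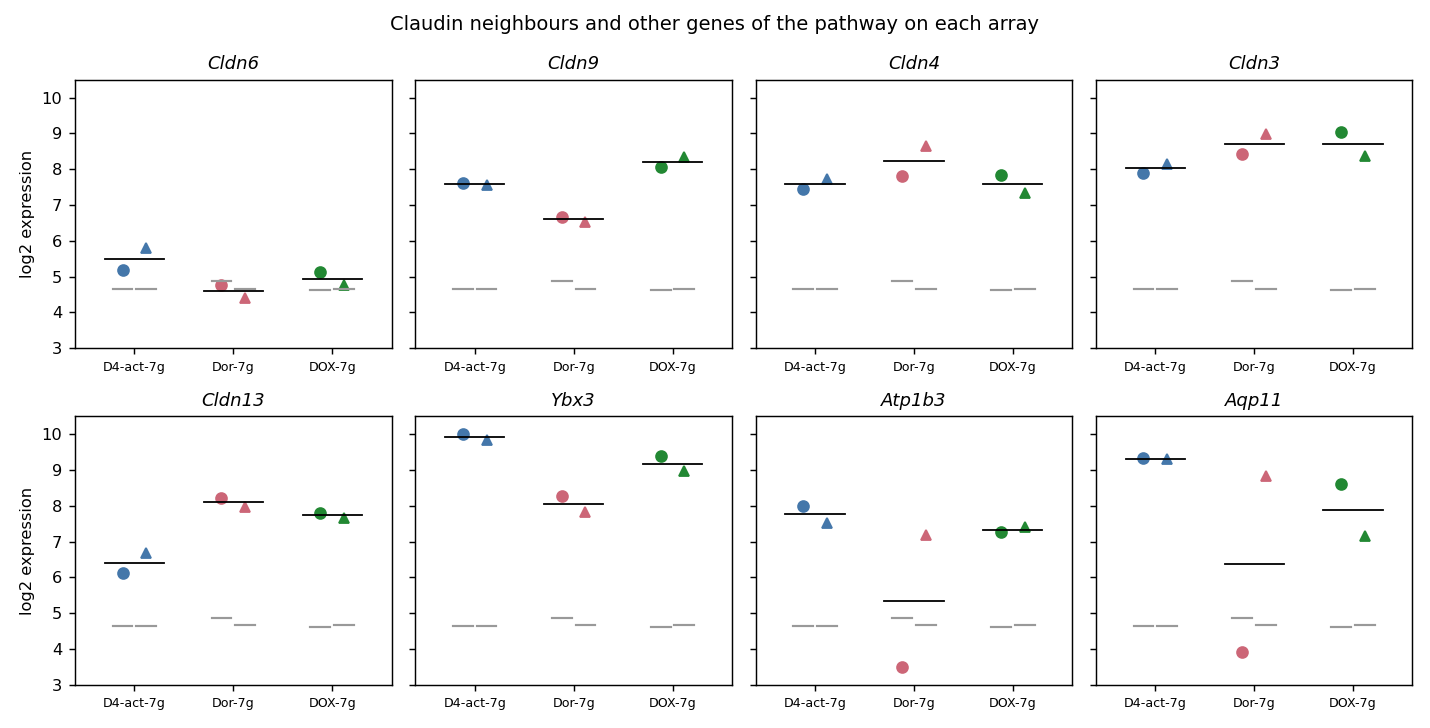
Log2 expression (vertical axis) of the claudin neighbours Cldn6 and Cldn9, and Cldn4 and Cldn3, and of 4 further genes on each array by group, with replicate 1 as circles, replicate 2 as triangles, group means as black lines and array medians as grey lines. Cldn9 and Ybx3 are lowest on the Dor-7g arrays, Cldn13 is lowest on the D4-act-7g arrays, and Atp1b3 (3.51) and Aqp11 (3.93) drop below the array median on Dor-7g replicate 1 alone.

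The 3 remaining pathway lists held no called gene in any comparison (limma); at an unadjusted p below 0.05 there were 0, 1 and 1 polarity genes, 1, 0 and 2 adherens-junction and desmosome genes, and 1, 0 and 0 ion exchangers and channels. Of 14 tested polarity genes, the largest differences were Crb3 at -0.48 ± 0.22 between Dor-7g and D4-act-7g and the Crumbs-complex scaffold gene Mpp5 at 0.59 ± 0.31 and 1.01 ± 0.31 in DOX-7g against D4-act-7g and Dor-7g (limma, adjusted p = 0.395, 0.611 and 0.323). Mpp5 was dim, below the array median, on both Dor-7g arrays (4.38 and 4.14) and on D4-act-7g replicate 1 (4.44). Of 11 adherens-junction and desmosome genes, the desmosomal cadherin gene Dsg2 differed by 0.75 ± 0.24 between Dor-7g and D4-act-7g and by -0.58 ± 0.24 between DOX-7g and Dor-7g (limma, adjusted p = 0.24 and 0.431), and Pkp4, a plakophilin gene, by -0.41 ± 0.27 between DOX-7g and D4-act-7g (limma, adjusted p = 0.715). Of 9 ion exchangers and channels, Scnn1a, a subunit of the epithelial sodium channel, differed by 0.50 ± 0.22 between Dor-7g and D4-act-7g (limma, adjusted p = 0.385). The anion exchanger gene Slc4a2 differed by -0.27 ± 0.18 between DOX-7g and D4-act-7g and the bicarbonate cotransporter gene Slc4a4 by -0.42 ± 0.20 between DOX-7g and Dor-7g (limma, adjusted p = 0.711 and 0.48). The medians of these 3 lists lay between -0.20 and 0.18 in all comparisons. Over all genes the shares at an unadjusted limma p below 0.05 were 14.3%, 11% and 11.6%.

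Among the markers of other tissues, only blood and immune genes were called. Of 8 tested uterine epithelium markers none passed in any comparison (limma; 2, 2 and 1 had an unadjusted p below 0.05). Their values lay above those of D4-act-7g for 8 of 8 in Dor-7g and 7 of 8 in DOX-7g, with medians of 0.45 and 0.26. Over all 14020 genes the medians were 0.06 and -0.05, with 43.3% and 58% of genes below D4-act-7g. The embryo's own primitive endoderm markers lay above it for 8 of 9 and 7 of 9, with medians of 0.32 and 0.11. The largest uterine epithelium difference was that of the mucin gene Muc1, 0.99 ± 0.19 and 1.22 ± 0.19 (limma, adjusted p = 0.0981 and 0.0643). The mean of the 10 measured was 6.36 to 6.42 on the D4-act-7g arrays, 6.77 to 6.87 in Dor-7g and 6.71 to 6.74 in DOX-7g. Klf5 (12.82 to 13.19), Wfdc2 (10.60 to 11.22) and Cldn3 (7.89 to 9.03), all in that list, were bright on every array, those of day 4 included. The uterine markers Pax8 (4.30 to 4.47) and Sprr2f (3.48 to 4.01) lay below the median on all arrays. Ltf (4.16 to 5.07) was above it on Dor-7g replicate 1 and DOX-7g replicate 2. The mean of 6 measured blood and immune markers was 4.56 to 4.96 in activated D4-act-7g, 4.94 to 5.88 in dormant Dor-7g and 7.18 to 7.42 in dormant DOX-7g, with 1 or 2, 3 and 5 of the 6 at or above the array median. Against D4-act-7g, the neutrophil gene S100a9 rose in Dor-7g by 2.21 ± 0.26 and in DOX-7g by 5.00 ± 0.26, and Ly6g rose in DOX-7g by 3.54 ± 0.25 (SE, n = 2 each; limma, adjusted p = 0.0274, 0.00112 and 0.00434), while Ptprc, a gene of all white blood cells, was at 3.57 to 3.82 on all arrays. Ly6g stood at 3.65 and 4.08 in D4-act-7g and at 3.75 and 4.25 in Dor-7g, all below the array median. Only its DOX-7g arrays, at 7.41 and 7.39, lay above the median and brought Ly6g through the filter. S100a9 was also dim in D4-act-7g, at 4.49 and 4.60, so no folds are given. S100a8, the partner gene of S100a9, had the list's largest difference between DOX-7g and D4-act-7g, 7.30 ± 1.31 (limma, adjusted p = 0.0949). S100a8 was likewise dim in D4-act-7g, at 3.28 and 3.16. The macrophage gene Cd68 lay the other way, at 8.04 and 9.34 in activated D4-act-7g against 6.90 and 9.19 in Dor-7g and 7.41 and 6.87 in DOX-7g, with differences of -0.65 ± 0.80 and -1.55 ± 0.80 (limma, adjusted p = 0.737 and 0.594). The part of these transcripts in the values of Cldn13, Cldn9 and the 9 genes was not tested. None of the 12 tested trophectoderm markers passed in any comparison (limma; 1, 2 and 0 had an unadjusted p below 0.05), and their medians were 0.13, 0.15 and -0.01. None of 7 tested inner-cell-mass and epiblast markers passed either (limma, with 0, 1 and 2 at an unadjusted p below 0.05). In the 3 comparisons 4, 6 and 6 of the 7 lay below 0, beside 43.3%, 58% and 62.9% of all genes. Their medians were -0.08, -0.24 and -0.35. The largest difference between DOX-7g and D4-act-7g was that of Tdgf1. It stood at 3.36 and 3.32 in DOX-7g, below the median, and at 5.91 and 4.86 in D4-act-7g.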

How the data were processed

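The deposited table holds the authors' log2 expression values, 1 per probeset and array, for 41345 probesets on 6 arrays. Partek 6.6 and RMA are named per the submitters' processing notes, without settings; per the labels' protocols RNA was released by heating 10 blastocysts in water. The array count limits the precision. Gene names came from the platform annotation (23521 with 1 symbol, 1814 with several, 16010 not named here), with symbols updated by Entrez identifier (193 unmatched) from a RefSeq table of GRCm38.p6. The brightest probeset by mean over 6 arrays stood for a gene. limma 3.58.1 in R 4.3.3 fitted all 6 arrays, 1 mean per group, no block, with eBayes (3 residual and 2.81 prior degrees of freedom), and Benjamini-Hochberg adjustment over 14020 genes kept. The fit was tested on simulated data. The members and lists were chosen with earlier results of these data known. Named genes were the members, called genes of 7 pathway lists, the largest difference of each list and comparison, and defining markers. Outside that rule, Fxyd1, Fxyd2, Fxyd4, Atp1a4 and Cldn3 were named with their values known. So were the markers Klf5, Wfdc2, Pax8, Sprr2f, Ltf, Dcn, Lum, Col1a1, Ly6g, Ptprc and Cd68. Alternatives covered the filter, normalization, variance model, probeset rule, block, arrays in the fit and leaving out each array.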

Additional observations from a re-analysis of the deposited data

How the results depend on the processing

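None of the 9 members was called under any of 15 alternatives, of which the stricter filter, with all 6 arrays at or above the median, tested only 5 of them; the lowest adjusted p was 0.124, for Aqp8. Over all genes, 138 were called between Dor-7g and D4-act-7g, 134 between DOX-7g and D4-act-7g and 163 between DOX-7g and Dor-7g. In that order, array weights gave 79, 461 and 104, and a fit on only the groups compared 86, 296 and 86. The stricter filter gave 68 for DOX-7g versus D4-act-7g and 81 for DOX-7g versus Dor-7g. Same-numbered arrays did not deviate together (r = -0.02, -0.01 and -0.14 across genes). These values cannot show whether the numbers pair samples. The replicate block gave 82, 90 and 116, and ended the calls of Cldn13 and Cldn9 (limma, adjusted p = 0.109 and 0.0681). Leaving out each array gave 11 to 1172, 43 to 296 and 67 to 880; a group left with 1 array is assumed to vary like the others.

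Of the 27 member differences, none called, 16 kept their sign under every alternative run. Centring each array on its median turned Atp1b1 between Dor-7g and D4-act-7g to -0.098 and Cldn4 between DOX-7g and D4-act-7g to 0.0017. A second quantile normalization turned that Cldn4 value to 0.020 and Aqp9 between DOX-7g and Dor-7g to -0.020. Leaving out each array turned 11 signs. Between Dor-7g and D4-act-7g the ranges were -0.23 to 0.29 for Atp1b1, -1.24 to 0.34 for Aqp3, -0.31 to 2.42 for Aqp8 and -0.58 to 0.017 for Ocln. Between DOX-7g and D4-act-7g they were -0.40 to 0.91 for Aqp8, -0.26 to 0.21 for Tjp1, -0.25 to 0.24 for Cldn4, -0.41 to 0.041 for Cldn7 and -0.41 to 0.19 for Ocln. Between DOX-7g and Dor-7g they were -2.17 to 0.57 for Aqp8 and -0.063 to 0.090 for Aqp9. Among differences that kept their sign, those between DOX-7g and Dor-7g ranged from -1.05 to -0.23 for Cldn4, -0.67 to -0.16 for Aqp3, 0.18 to 0.54 for Cldn6 and 0.080 to 0.27 for Ocln, and those of Cldn6 from D4-act-7g from -1.20 to -0.61 in Dor-7g and -0.84 to -0.25 in DOX-7g. Centring, quantile normalization, eBayes with trend and robust, array weights or the fit on 2 groups ended the call of Cldn13 (limma, adjusted p from 0.0547 to 0.127). Quantile normalization, array weights or the fit on 2 groups ended that of Ybx3 (0.0698 to 0.0807), and the latter pair that of Cldn9 (0.0561 and 0.0949). Array weights brought a call of Cldn13 between DOX-7g and D4-act-7g (0.035). Centring moved the split of calls between Dor-7g and D4-act-7g from 34 higher and 104 lower to 27 and 128. The causes were not tested. Levels below the array median, those of Tjp1 on all arrays, Cldn6 in Dor-7g, Aqp3 in DOX-7g and Aqp8 on 3 of 6 arrays, limit what could be seen of these genes.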
